A study of Homo sapiens with 8 samples.

Results

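MET and 9 other genes of receptor tyrosine kinase signalling were followed in U87 cells, a human glioblastoma cell line, after siRNA knock-down of RND3. The 10 genes were the receptors MET, EGFR, ERBB2, PDGFRA, PDGFRB, FGFR1, AXL, EPHA2 and IGF1R and the ligand HGF, chosen by name out of 19483 genes named on the arrays. The choice was made with earlier results of these data known. The paper had already reported MET as lower after RND3 knock-down. Every probe whose transcript accession mapped to one of the 10 genes was taken, which gave 14 probes. All 10 genes passed the filter on dim probes and were well above background on every array. The question was which transcripts change when RND3 is lowered. The 8 single-colour arrays held 3 samples transfected with non-silencing oligos (siControl) and 3 with siRNA against RND3 (siRND3) at 24 h after transfection, and 1 sample of each kind at 48 h. All groups were the same cell line, carried no further agent and received their oligos with the lipid reagent Lipofectamine RNAiMAX. The methods name a pair of oligos against RND3 without tying either to an array, and nothing says that replicates were separate transfections, so p-values measure the spread between these samples, which may be technical.

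Receptor tyrosine kinases are single-pass membrane proteins that pair up when an extracellular ligand binds, phosphorylate one another, and recruit adaptor proteins that feed the RAS-ERK and PI3K-AKT pathways. MET is the receptor for hepatocyte growth factor (HGF), which is secreted as an inactive precursor and cut by serine proteases, and the pair is known for cell scattering and invasion. EGFR, PDGFRA and MET are among the receptors most often amplified in glioblastoma. ERK signalling also induces its own inhibitors, such as the Sprouty proteins and the phosphatase DUSP6.

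MET, AXL and PDGFRA fell with RND3 knock-down at 24 h and at 48 h, and no member rose under the same test. The regions just before their annotated start sites are shown because these 3 members moved together. The sequences are the 200 bases before each start in RefSeq (GRCh38.p14), 5′ to 3′ on the strand of the gene, and capitals mark matches to any of 4 motifs searched on both strands.
MET, chr7:116671996-116672195, plus strand: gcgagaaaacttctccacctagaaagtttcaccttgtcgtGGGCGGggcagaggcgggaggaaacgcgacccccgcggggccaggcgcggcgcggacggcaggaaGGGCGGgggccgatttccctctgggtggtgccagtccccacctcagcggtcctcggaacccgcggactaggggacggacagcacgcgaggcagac
AXL, first start site, chr19:41219023-41219222, plus strand: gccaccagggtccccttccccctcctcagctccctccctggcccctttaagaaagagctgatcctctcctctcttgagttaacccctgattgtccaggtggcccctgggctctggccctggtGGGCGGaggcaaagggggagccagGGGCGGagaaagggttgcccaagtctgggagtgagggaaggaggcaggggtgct
AXL, other start site, chr19:41226555-41226754, plus strand: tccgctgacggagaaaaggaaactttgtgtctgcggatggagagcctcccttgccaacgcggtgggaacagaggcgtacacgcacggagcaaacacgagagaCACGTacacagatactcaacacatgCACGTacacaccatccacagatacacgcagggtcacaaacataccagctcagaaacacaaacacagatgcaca
PDGFRA, first start site, chr4:54229093-54229292, plus strand: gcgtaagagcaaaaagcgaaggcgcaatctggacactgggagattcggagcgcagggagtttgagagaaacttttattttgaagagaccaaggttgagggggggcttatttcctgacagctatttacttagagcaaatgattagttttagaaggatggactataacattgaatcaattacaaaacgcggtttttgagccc
PDGFRA, other start site, chr4:54233760-54233959, plus strand: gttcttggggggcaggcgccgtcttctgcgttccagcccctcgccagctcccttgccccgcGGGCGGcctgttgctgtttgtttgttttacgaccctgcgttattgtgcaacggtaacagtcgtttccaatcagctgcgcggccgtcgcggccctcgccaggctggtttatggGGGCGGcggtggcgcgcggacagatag
The motifs were the GC box GGGCGG, the AP-1 site TGACTCA, the ETS site CCGGAAGT and the hypoxia response core ACGTG, and none overlapped another in these windows. The MET window held 2 GC boxes and none of the other 3 motifs. The first AXL window and the other PDGFRA window also held 2 GC boxes each, the other AXL window held 2 copies of the hypoxia core, and the first PDGFRA window held no match. Of 35116 RefSeq windows of the same length, 40.1% held a GC box, 3.54% an AP-1 site, 3.19% an ETS site and 15.6% a hypoxia core. Among 6 members that did not pass the test and were searched, EGFR, PDGFRB, EPHA2 and IGF1R held 1 GC box each, IGF1R also 1 hypoxia core, the other EGFR start 1 AP-1 site, ERBB2 2 ETS sites and HGF no match. A match is a description of the letters in the window and says nothing about binding.

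The targeted gene was examined first. The RND3 probe (A_23_P142849) read 11.88, 11.91 and 11.90 on the log2 normalised scale in siControl cells at 24 h, and 10.13, 10.18 and 10.41 in siRND3 cells. RND3 was thus at 31.7% of siControl at 24 h (log2 difference -1.66, SE 0.0933, limma adjusted p = 0.000338), and at 31.9% at 48 h. All siRND3 arrays lay in row 1 of the slide and all siControl arrays in row 2, so the position on the slide and the knock-down cannot be told apart. Both arrays at 48 h lay in column 4, and same-numbered arrays at 24 h shared a column. Time and replicate number thus cannot be told apart from the column either. GFAP, a glial marker, stood clear of background on no array at 24 h, whereas 5 of 7 glial and mesenchymal markers were on all 6. Of the markers of other cell types, 5 of 5 leukocyte, 3 of 4 endothelial, 2 of 4 epithelial and 2 of 4 neuronal genes were well above background on all 6 arrays, with CLDN5, CDH1, KRT5 and RBFOX3 on none. The summed linear signal in siControl and siRND3 cells at 24 h was 179 to 221 and 216 to 239 for leukocyte, 259 to 286 and 261 to 289 for endothelial, and 72.8 to 77.9 and 63.1 to 70.5 for epithelial markers. It was 1820 to 1912 and 1316 to 1478 for neuronal markers, and 223566 to 237659 and 194375 to 217498 for glial and mesenchymal ones. Of the marker lists SNAP25 (neuronal, -0.42), PECAM1 (endothelial, -0.99) and CD44 (mesenchymal, -0.56) passed as lower and NES (glial, 0.41, adjusted p = 0.0448) as higher, while CDH5 (endothelial) gave 0.31 (adjusted p = 0.0594). SNAP25, PECAM1 and NES missed the threshold when any siControl array at 24 h was left out, while CD44 passed whichever array was left out. With normexp correction the PECAM1 difference was -0.33. The part of these markers in the results was not tested.

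MET, the HGF receptor, fell furthest of the members at 24 h. Its probe (A_23_P359245, 10 spots per array) read 13.31, 13.22 and 13.26 in siControl cells and 12.40, 12.18 and 12.36 in siRND3 cells. The groups did not overlap, and the gap between them was several times the spread within either. The level went from 13.26 ± 0.0445 to 12.31 ± 0.118 (SD, n = 3 each), a log2 difference of -0.95 (SE 0.0853, limma adjusted p = 0.00147) that left 51.8% of the siControl signal. In bulk RNA, fewer cells with a transcript and less of it per cell cannot be told apart. At 48 h the siControl array read 13.22 and the siRND3 array 10.67, a difference of -2.55 (SE 0.148, adjusted p = 0.000346) and a level 5.85-fold lower.

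AXL, the receptor for the vitamin K-dependent ligand GAS6, fell next. Its probe (A_23_P208389) read 13.73, 13.69 and 13.72 in siControl cells and 12.87, 12.97 and 12.88 in siRND3 cells. Its replicates lay close together and the groups did not overlap. The difference was -0.80 (SE 0.0683, limma adjusted p = 0.0012), which left 57.4% of siControl. At 48 h AXL read 13.99 in the siControl array and 12.56 in the siRND3 array, a difference of -1.43 (SE 0.118, adjusted p = 0.000824).

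PDGFRA, a receptor for platelet-derived growth factors that marks the glial progenitor lineage, fell from a lower signal. Its probe (A_23_P300033) read 5.52, 5.45 and 5.62 in siControl cells and 4.77, 4.82 and 4.86 in siRND3 cells, again without overlap. The difference was -0.71 (SE 0.0767, limma adjusted p = 0.00295), or 61.0% of siControl. At 48 h the values were 6.07 and 4.53, a difference of -1.54 (SE 0.133, adjusted p = 0.000937). The size for this dim probe depended on the background correction: with normexp correction the differences were -0.31 at 24 h and -0.58 at 48 h, both still past the threshold.

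**Figure D1:**
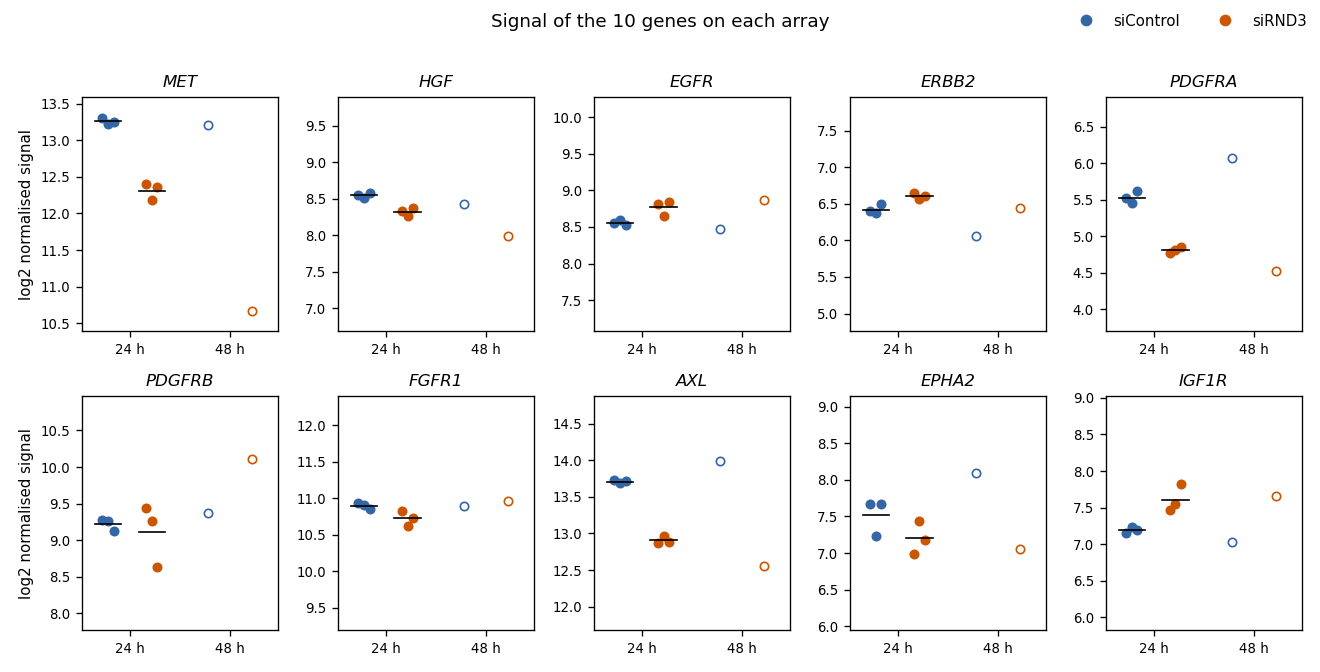
Log2 normalised signal (vertical axis, the same span of 3.2 units in every panel) of the probe that stands for each gene, on each of the 8 arrays. Filled points are the 3 arrays per group at 24 h with their mean as a line, and open points the single arrays at 48 h. MET, AXL and PDGFRA show siRND3 arrays below all siControl arrays at both times.

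The PDGF receptor encoded by the other gene, PDGFRB, did not follow PDGFRA. PDGFRB read 9.28, 9.26 and 9.13 in siControl cells and 9.44, 9.26 and 8.63 in siRND3 cells, so the groups overlapped and siRND3 replicate 3 lay far below the others. The difference was -0.11 (SE 0.207, limma adjusted p = 0.773), and without that array it was 0.13. At 48 h PDGFRB read 9.38 in siControl and 10.11 in siRND3 cells, a difference of 0.73 (SE 0.358, adjusted p = 0.23).

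HGF, the ligand of MET, was measured by 2 probes that parted. The brighter one (A_33_P3276718) read 8.55, 8.51 and 8.58 in siControl cells and 8.33, 8.27 and 8.37 in siRND3 cells, a difference of -0.22 (SE 0.0692, limma adjusted p = 0.0887). The other (A_33_P3276713) read 7.91, 7.96 and 7.85 against 8.01, 8.22 and 7.94, a difference of 0.15 (SE 0.0945, adjusted p = 0.352). At 48 h the first differed by -0.44 (adjusted p = 0.0486) and the second by 0.66 (adjusted p = 0.0359). Because its probes passed in opposite directions, HGF was not counted as changed at 48 h.

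The ERBB receptors gave small differences at 24 h. EGFR, the receptor for EGF and its relatives, read 8.56, 8.60 and 8.53 in siControl cells and 8.81, 8.65 and 8.84 in siRND3 cells on its brightest probe (A_23_P215790), with no overlap. That difference of 0.21 (SE 0.0799) had a limma adjusted p of 0.152. The dimmer EGFR probes differed by -0.07 (A_33_P3351944, adjusted p = 0.612) and 0.01 (A_33_P3351955, adjusted p = 0.969), so the 3 probes did not share a direction. At 48 h they gave 0.39 for the brightest, and -0.39 and -0.40 for the others, with adjusted p-values of 0.108, 0.0946 and 0.163. ERBB2, which has no known ligand of its own and pairs with other ERBB receptors, read 6.40, 6.37 and 6.49 against 6.65, 6.56 and 6.60. Its groups did not overlap, but the difference of 0.18 (SE 0.0718) missed the threshold (adjusted p = 0.157), as did that of 0.38 at 48 h (adjusted p = 0.0822).

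IGF1R, the receptor for insulin-like growth factors, came closest to a rise. It read 7.15, 7.24 and 7.20 in siControl cells and 7.46, 7.55 and 7.82 in siRND3 cells. Every siRND3 array lay above every siControl array, and the difference was 0.41 (SE 0.108, limma adjusted p = 0.0567). Of 17 other settings tried, 6 placed it past the threshold, among them scaling to the 75th percentile (0.44, adjusted p = 0.0385). Whichever array was left out, IGF1R missed the threshold. At 48 h IGF1R read 7.02 and 7.66, a difference of 0.64 (SE 0.187, adjusted p = 0.0609).

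EPHA2, a receptor for ephrin-A ligands on neighbouring cells, varied widely among replicates (SD 0.257 in siControl and 0.224 in siRND3 cells, n = 3 each). It read 7.67, 7.23 and 7.68 in siControl cells and 6.99, 7.44 and 7.18 in siRND3 cells, and the groups overlapped. The difference was -0.32 (SE 0.167, limma adjusted p = 0.263). At 48 h it read 8.10 and 7.06, a difference of -1.04 (SE 0.289) that just missed the threshold. It passed with normexp correction (-0.79) and with the authors' values (-0.94), but in 7 of the 11 alternatives run for it EPHA2 missed the threshold as well. FGFR1, a fibroblast growth factor receptor, read 10.93, 10.90 and 10.85 in siControl cells and 10.83, 10.62 and 10.72 in siRND3 cells (A_23_P301304). Its difference of -0.17 (SE 0.0808) had an adjusted p of 0.226, its other probe (A_23_P372923) an adjusted p of 0.996, and at 48 h the brighter probe differed by 0.07 (adjusted p = 0.809).

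Over the 10 members, 3 passed as lower at 24 h, where 9.29% of all 14805 genes tested did, and 0 as higher, where 7.35% of all genes did. Because the members were chosen with earlier results of these data known, these counts beside the shares are a description only. At an unadjusted p under 0.05 in limma, 4 members were lower (HGF in addition, beside 16.6% of all genes) and 3 higher (EGFR, ERBB2 and IGF1R, beside 20.1% of all genes), and the SAM permutation test called IGF1R higher. The 3 siRND3 arrays lay below all siControl arrays for 5 members (MET, HGF, PDGFRA, FGFR1 and AXL), where 17.5% of genes did so, and above them for 3 (EGFR, ERBB2 and IGF1R), where 24.1% did. For each of these 8 members the exact permutation test over the 6 arrays, two-sided, gave p = 0.1, the smallest that 3 arrays against 3 allow. The median difference was -0.20 over the members and 0.04 over all genes. The fall of MET, AXL and PDGFRA passed the threshold under every alternative setting run at 24 h, including whichever array was left out.

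**Figure D2:**
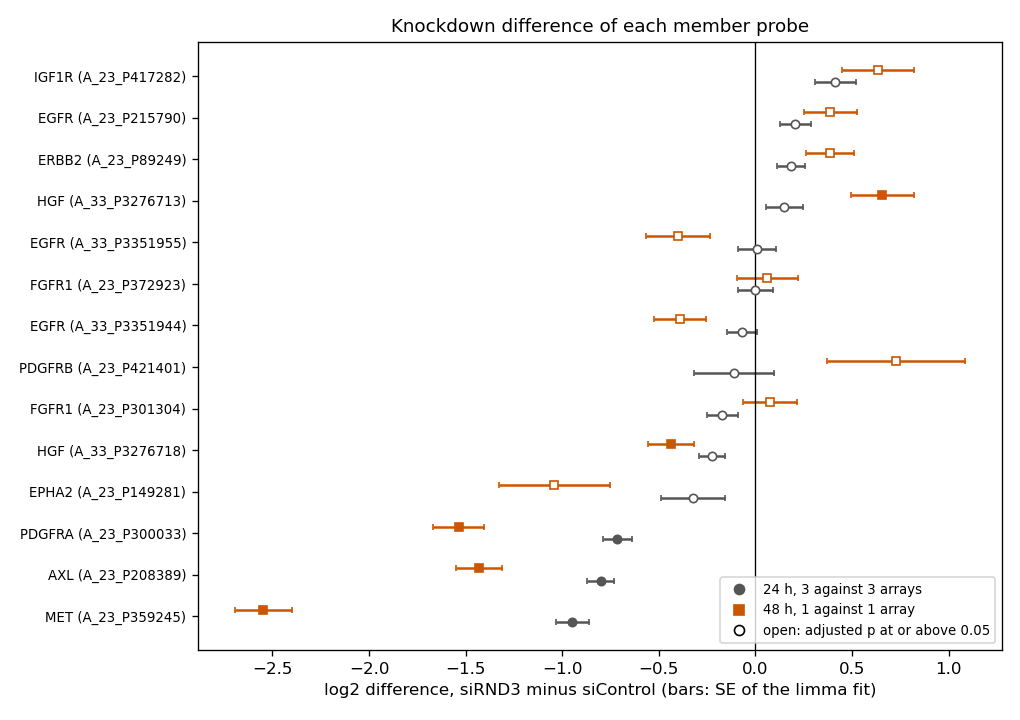
Log2 difference between siRND3 and siControl cells (horizontal axis) for each of the 14 member probes, at 24 h (circles) and 48 h (squares), with the SE of the limma fit as bars and filled symbols for an adjusted p under 0.05. MET shows the widest step between the times, from -0.95 to -2.55, and the probes of HGF and of EGFR lie on both sides of 0 at 48 h.

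The single arrays at 48 h were tested on the assumption that they vary like the arrays at 24 h. In that fit 3 members were lower (MET, AXL and PDGFRA), where 13.5% of genes were, and 0 higher, where 14.3% were. HGF had probes in both directions. At an unadjusted p under 0.05, 6 members had a lower probe and 4 a higher one in limma, as did 19.4% and 23.9% of all genes.

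Whether the effect of knock-down itself differed between the times was tested as an interaction. The effect grew more negative for 2 members, where 2.61% of genes did, and more positive for 0, where 1.72% did. At an unadjusted p under 0.05 in limma the counts were 3 and 1, beside 12.0% and 12.9% of all genes. For MET the change in effect was -1.60 (SE 0.171, adjusted p = 0.0184), while for PDGFRA it was -0.82 (SE 0.153, adjusted p = 0.0492) and for AXL -0.63 (SE 0.137, adjusted p = 0.0692). For RND3 itself it was 0.01 (SE 0.187, adjusted p = 0.99). The MET call was lost when siControl replicate 1, 2 or 3 at 24 h was left out (adjusted p = 0.0683, 0.0693 and 0.0736) with the size at -1.62, -1.58 and -1.60, and the PDGFRA call when any of the 6 arrays at 24 h was (adjusted p from 0.0715 to 0.122). The PDGFRA change was -0.27 (adjusted p = 0.28) with normexp correction, where AXL passed at -0.61 (adjusted p = 0.0252), and -0.39 (adjusted p = 0.215) with the authors' values. Of the 11 alternatives run for it, scaling to the 75th percentile alone kept the PDGFRA call.

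The 4 group levels of MET were, in order, 13.26 in siControl cells at 24 h, 13.22 in siControl cells at 48 h, 12.31 in siRND3 cells at 24 h and 10.67 in siRND3 cells at 48 h. The siControl levels differed by -0.05 (SE 0.121, adjusted p = 0.861), with the 48 h value just under the lowest of the 24 h values, whereas in siRND3 cells MET was lower at 48 h than at 24 h by a log2 difference of -1.65 (adjusted p = 0.00255). From 24 h to 48 h in siControl cells 0 members passed in either direction, where 4.03% of genes were lower and 1.22% higher, and limma gave 1 lower and 4 higher members at an unadjusted p under 0.05 (16.6% and 9.94% of all genes). PDGFRA in siControl cells came nearest, with a difference of 0.54 (adjusted p = 0.0525). In siRND3 cells MET alone passed, and as lower, where 9.32% of genes were lower and 3.65% higher.

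The genes whose signal ran most like that of MET over the 8 arrays, out of 14129 candidates, were PITPNA (a phosphatidylinositol transfer protein, r = 0.999), BMPER (a secreted BMP-binding protein, 0.997), MAPRE1 (a microtubule end-binding protein, 0.997), PTPRN2 (0.997) and NAMPT (an NAD salvage enzyme, 0.997). Among members the r with MET was 0.974 for HGF (its brighter probe, while its other probe moved the other way), 0.888 for AXL, 0.835 for PDGFRA and 0.622 for EPHA2. It was 0.04 for FGFR1, -0.35 for ERBB2, -0.59 for PDGFRB, -0.75 for IGF1R and -0.81 for EGFR. These are descriptions over arrays that share treatment and time.

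Of 49 other receptor tyrosine kinases, 32 were tested, and 5 fell and 1 rose at 24 h (9.29% and 7.35% of all genes), with a list median of 0.07. KIT, the receptor for stem cell factor, rose by 0.68 (limma adjusted p = 0.00462). At 48 h KIT differed by 0.29 and was not called, so the gene counted as higher at 48 h below is not KIT. KDR, the main receptor for VEGF-A, fell by 1.11 (adjusted p = 0.0398), the receptor-like kinase STYK1 by 0.66 (adjusted p = 0.00554) and the neuregulin receptor ERBB3 by 0.48 (adjusted p = 0.0143). CSF1R and NTRK3 are named after their values were seen: CSF1R, the receptor for macrophage colony-stimulating factor, differed by -0.35 (adjusted p = 0.0295). NTRK3, the receptor for neurotrophin-3, fell on 1 probe (A_33_P3322814) from 6.20, 6.27 and 6.45 to 4.72, 4.46 and 4.97, a difference of -1.59 (adjusted p = 0.00151), while its other tested probes differed by 0.19 and 0.36. At 48 h that probe read 6.38 in siControl and 2.97 in siRND3 cells, 10.6-fold lower. The siRND3 value was not well above background, so this fold rests on a dim value. Another NTRK3 probe (A_23_P205900) went the other way at 48 h. It read 3.19 in siControl cells, not well above background, and 3.74 in siRND3 cells. At 48 h the list had 6 genes lower and 1 higher (13.5% and 14.3% of all genes). When siControl replicate 1 was left out, 3 of these kinases passed at 24 h (NTRK3, STYK1 and KIT), and these passed whichever array was left out. KDR, KIT, STYK1 and ERBB3 have low signal, and with normexp correction their differences were -0.35, 0.21, -0.34 and -0.15, the last no longer past the threshold.

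Of 35 ligands from the families that bind the member receptors, 24 were tested and 4 fell, with none higher (9.29% and 7.35% of all genes). The list was drawn by family, so a ligand in it need not bind a member itself. The list median was -0.01. HBEGF, a membrane-anchored EGFR ligand, read 9.37, 9.22 and 9.32 in siControl cells and 7.96, 8.12 and 8.05 in siRND3 cells, a difference of -1.27 (limma adjusted p = 0.000493), and -2.31 at 48 h. FGF2, a growth factor for FGFR1, differed by -0.94 (adjusted p = 0.0177) and FGF18, another fibroblast growth factor, by -0.85 (adjusted p = 0.0201). PDGFA, a ligand of PDGFRA, passed through 1 probe (A_23_P113701, -1.01, adjusted p = 0.00152), while its brighter probe gave -0.28 (adjusted p = 0.0997). Without adjustment, 7 ligands were lower and 3 higher at p under 0.05 in limma (16.6% and 20.1% of all genes). Leaving out any 1 siControl array left 2 ligands lower, since FGF2 and FGF18 then missed the threshold (adjusted p from 0.0537 to 0.0767).

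Of 16 genes that process HGF or partner with MET, 14 were tested, 2 fell and none rose (9.29% and 7.35% of all genes), with a list median of 0.06. PLAU, the urokinase plasminogen activator, a serine protease able to cut the HGF precursor, read 16.41, 16.27 and 16.46 in siControl cells and 14.40, 14.54 and 14.45 in siRND3 cells. Its groups lay far apart, with a difference of -1.92 (SE 0.0833, limma adjusted p = 0.000146), or 26.5% of siControl, and its second probe gave -2.05. At 48 h PLAU differed by -4.46, which left 4.55% of siControl. CD44, a hyaluronan receptor whose splice forms serve as MET co-receptors, differed by -0.56 (adjusted p = 0.00855) at 24 h and -2.11 at 48 h. In limma 3 genes of the list were lower and 3 higher at an unadjusted p under 0.05 (16.6% and 20.1% of all genes).

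Of 25 adaptors that bind activated receptors, 24 were tested, 3 fell and none rose (9.29% and 7.35% of all genes), with a list median of -0.12. The balance turned on the setting: normexp correction gave 4 lower and 3 higher, the authors' values 3 and 3, and the mean of a gene's probes 4 and 3. SHC2 differed by -0.47 (limma adjusted p = 0.0146) and SHC1 by -0.33 (adjusted p = 0.0405). IRS1, the main docking protein of IGF1R and the insulin receptor, passed through 1 probe (A_24_P802145, -0.54, adjusted p = 0.0361), and its brighter probe gave -0.37 (adjusted p = 0.0871). Without adjustment 6 adaptors were lower and 5 higher at p under 0.05 (16.6% and 20.1% of all genes), and at 48 h 4 adaptors were lower and 5 higher (13.5% and 14.3% of all genes). SHC1 missed the threshold whichever array was left out (adjusted p from 0.0582 to 0.153), and without siControl replicate 1 or replicate 2 0 adaptors passed at 24 h.

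Of 21 inhibitors and feedback regulators of receptors, 19 were tested, 7 fell and 2 rose (9.29% and 7.35% of all genes), with a list median of -0.05. PTPRJ, a receptor phosphatase that can dephosphorylate MET, had the largest rise of the list, from 7.02, 7.08 and 7.11 in siControl cells to 8.24, 8.22 and 8.47 in siRND3 cells. That difference of 1.24 (SE 0.0918, limma adjusted p = 0.000786) stood beside one of 1.40 at 48 h. SPRED2, an inhibitor of RAS-ERK signalling, differed by -0.80 (adjusted p = 0.0491), ERRFI1, which binds and inhibits EGFR, by -0.61 (adjusted p = 0.00782) and SPRY2, a Sprouty protein, by -0.60 (adjusted p = 0.00737). As arrays were left out the list had 2 to 4 lower and 1 or 2 higher genes, and SPRED2 missed the threshold whichever array was left out (adjusted p from 0.0593 to 0.131).

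Of 14 genes known to respond to ERK signalling, a list that shares SPRY2, SPRY4, DUSP4 and DUSP6 with the inhibitors, EPHA2 with the members and EPHA4 with the other kinases, all were tested, 7 fell and none rose at 24 h (9.29% and 7.35% of all genes). The list median was -0.33 beside 0.04 over all genes. IER3, an immediate early gene, read 13.37, 13.49 and 13.44 in siControl cells and 12.82, 12.84 and 12.75 in siRND3 cells, a difference of -0.63 (limma adjusted p = 0.00375). PHLDA1 differed by -0.62 (adjusted p = 0.0062) and SPRY4 by -0.50 (adjusted p = 0.0364). Tested probes of SPRY4 changed in effect in opposite directions between 24 h and 48 h, so the SPRY4 difference holds for its brightest probe. With no adjustment, 7 genes were lower and 0 higher at p under 0.05 in limma (16.6% and 20.1% of all genes). At 48 h 8 genes were lower and none higher (13.5% and 14.3% of all genes), with a median of -1.02 beside 0.06 over all genes. Whichever array at 24 h was left out, 3 or 4 genes of the list passed as lower. SPRY4 missed the threshold when any array other than siRND3 replicate 2 was left out (limma adjusted p from 0.066 to 0.126).

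**Figure D3:**
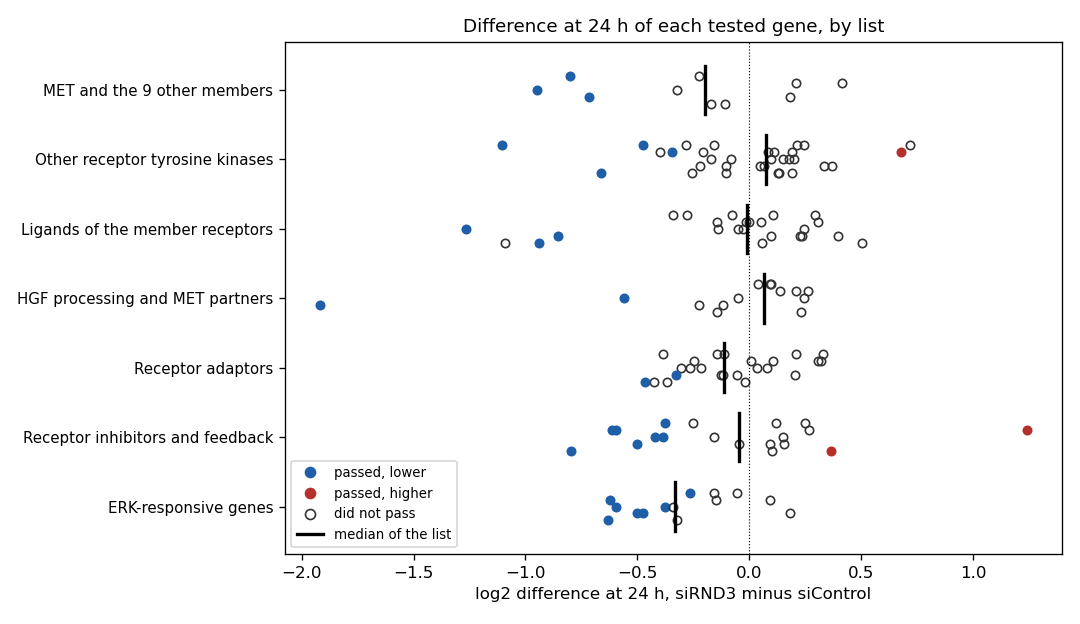
Log2 difference between siRND3 and siControl cells at 24 h (horizontal axis) of each tested gene in 7 lists, by the brightest probe of each gene, with the list median as a bar and filled points for an adjusted p under 0.05. PLAU at -1.92 and PTPRJ at 1.24 mark the extremes, while NTRK3, PDGFA and IRS1, which passed through a dimmer probe, appear as open points.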

How the data were processed

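Total RNA of U87 cells was measured on 8 Agilent single-colour (Cy3) arrays, and groups, times and replicate numbers were taken from the labels. The authors extracted features with Feature Extraction 10.7.3.1, and the deposited files hold background-corrected spot intensity on a linear scale, annotated on hg19. The authors also deposited log2 quantile-normalised values, which ranked within each array as the spot medians (Spearman correlation 1) and served as an alternative.

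Here the processed intensity was taken to log2 and all 8 arrays were quantile-normalised together. Control spots (4259 of 62976) and outlier spots (0.364% to 0.530% per array) were left out, none was saturated, and spots of a probe were averaged. A probe counted as well above background where at least 50% of its spots were so marked (68.3% to 70.7% of probes per array), and probes so marked on all 3 arrays of a group at 24 h were tested (28759 of 42405). Probes were named by transcript accession through RefSeq (GRCh38.p14), which named 25422. The number of arrays limits the precision.

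Groups at 24 h were compared with limma 3.58.1 in R 4.3.3 (lmFit, eBayes), and both times in a 4-group limma model, with Benjamini-Hochberg adjustment over all tested probes and a threshold of 0.05. A gene was called when a probe passed and none passed the other way, and its brightest probe gave its difference. The scripts were tested on simulated data. All members were named, and from other lists up to 4 called genes with the largest differences, with exceptions stated. Members and lists were chosen with earlier results of these data known.

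Alternatives were 75th percentile scaling, normexp correction (offset 50), the authors' values, other filters, normalisation over the 24 h arrays, a replicate block, all 8 arrays with time as a term, array weights, a SAM permutation test (false discovery rate 5%), the mean of a gene's probes, and leaving out each array.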

Additional observations from a re-analysis of the deposited data

Results flagged for a closer look

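The effect of knock-down differed between 24 h and 48 h for 14 of the genes whose differences are given above. This was the interaction test in limma, with 1 array per treatment at 48 h. Of all 14805 genes tested, 2.61% had an effect that grew more negative and 1.72% one that grew more positive. Apart from the members, most of these genes were named for their differences at 24 h in the same arrays, so the count is a description only. From 24 h to 48 h the effect moved by -1.60 for MET (adjusted p = 0.0184) and -0.82 for PDGFRA (adjusted p = 0.0492). The step was -2.54 for PLAU (adjusted p = 0.00859), -1.55 for CD44 (adjusted p = 0.0184), -1.04 for HBEGF (adjusted p = 0.035) and -1.14 for PDGFA on the probe that passed at 24 h (adjusted p = 0.0365). It was -1.37 for CSF1R (adjusted p = 0.0184), -0.96 for ERBB3 (adjusted p = 0.0369) and -1.81 for NTRK3 on its probe that fell (adjusted p = 0.0365). It was -1.31 for IER3 (adjusted p = 0.0202), -0.97 for ERRFI1 (adjusted p = 0.0443) and -0.91 for SHC2 (adjusted p = 0.0405). Among the markers it was -2.45 for PECAM1 (adjusted p = 0.0339) and 1.68 for NES (adjusted p = 0.0228), whose other probe gave 0.14 (adjusted p = 0.781). From 24 h to 48 h NES changed by -2.07 in siControl cells and by -0.38 in siRND3 cells. The NES step thus lay mainly in the single siControl array at 48 h. The NTRK3 and PECAM1 probes were not well above background in siRND3 cells at 48 h, so these 2 steps rest on dim values. Another tested probe of ERBB3 changed in effect in the opposite direction, so the ERBB3 step holds for its brightest probe.

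Of these 14 calls, 0 held when siControl replicate 1 was left out, and 1 when siControl replicate 2 or 3 was, although without siControl replicate 1 the steps still ran from -2.56 to 1.70 (-2.54 to 1.68 with all arrays). Without siRND3 replicate 1, 2 or 3 at 24 h, 7, 8 and 6 held. With normexp correction 10 held and with the authors' values 11, neither of which kept PDGFRA (-0.27 and -0.39). Over all genes, 641 changed in effect, and 7, 19 and 20 did without siControl replicate 1, 2 and 3.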

How the results depend on the processing

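MET, AXL and PDGFRA stayed lower and past the threshold at 24 h and 48 h under every alternative run. Over the alternatives to the 24 h fit their differences ran from -1.35 to -0.88, -0.96 to -0.76 and -0.92 to -0.31. These include the fit of all 8 arrays, which gives 1 difference over both times and -1.35 for MET. On arrays at 24 h alone MET ran from -0.99 to -0.88. Members called at 24 h numbered 3 whichever array was left out. The fit of all 8 arrays with time as a term, over both times, called 5 and added HGF and IGF1R. At 48 h, 5 were called with 75th percentile scaling, with normexp correction and with the authors' values, and HGF was called lower under the first and higher under the last. The count was 3 to 6 as arrays were left out, with 6 without siRND3 replicate 3, and HGF was called higher without siRND3 replicate 1 or 3. The change in effect was called for 1 member with the authors' values, without the filter and with array weights, and for 0 to 1 as arrays were left out. From 24 h to 48 h, 1 member passed in siControl cells with 75th percentile scaling and with array weights (PDGFRA, higher). In siRND3 cells 3 passed with normexp correction, 2 with the authors' values, and 1 to 2 as arrays were left out. With all 8 arrays, over both times, PDGFRB gave 0.10 in place of -0.11 at 24 h. Its difference at 24 h ranged from -0.28 to 0.13 as arrays were left out, with 0.13 without siRND3 replicate 3. Other receptor tyrosine kinases called ranged from 3 to 5 as arrays were left out. The causes were not tested.

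Same-numbered arrays deviated together at r = 0.0019, -0.012 and 0.129, and arrays of unlike number at r from -0.134 to 0.112. Deviations were taken from the mean of 3 arrays per group, so these values cannot settle whether replicate numbers paired the arrays. With the replicate number as a block 3 members were called, the same genes, with 4 other receptor tyrosine kinases in place of 6, and 1220 genes overall in place of 2463. Without siControl replicate 1, 2 or 3 the genes called numbered 1142, 1241 and 1066. Dim probes such as that of PDGFRA limit how well a fold is known.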
